A study of Gasterosteus aculeatus with 17 samples.

Results

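In the gills of three-spined sticklebacks (Gasterosteus aculeatus), 17 of 22456 listed genes were higher in marine fish moved to fresh water than in marine fish kept in marine water, while the same genes differed little between waters in freshwater fish. The 17 genes were chosen by measured values: counts divided by the library's total and multiplied by 1000000 (CPM), averaged by group. A gene was taken if moved marine fish averaged 5 CPM or more, if their log2 ratio to kept marine fish was 1.5 or more (0.5 CPM added to both means), if the lowest moved marine fish lay above the highest kept marine fish, and if the log2 ratio of fresh to marine water in freshwater fish lay between -0.5 and 0.5. Both water contrasts were therefore used in the choice. Test calls of the 17 genes between moved and kept marine fish are counted below as description, and nothing is read from them. The water contrast in freshwater fish was not tested. Genes are ranked from 1 to 17 by the log2 ratio in marine fish.

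The study sequenced polyadenylated RNA from whole gills of 17 wild-caught males in breeding dress, 1 library per fish. Marine fish came from a sea coast and were held in marine water ("kept marine fish", n = 4) or spent 4 days in fresh water ("moved marine fish", n = 5). Freshwater fish came from a lake and were held in fresh water ("kept freshwater fish", n = 4) or spent 4 days in marine water ("moved freshwater fish", n = 4). All groups share sex, breeding state and captivity, and ages are not given. In moved marine fish the effect of fresh water and that of the move itself cannot be told apart.

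The gill is the organ through which a fish exchanges salt and gas with the water. In the sea, ionocytes of the gill epithelium secrete salt that the fish has swallowed, and in fresh water ionocytes take up the scarce ions of the medium. A fish that crosses between these waters changes its ion transporters and the junctions between its cells over hours to days, and the three-spined stickleback is known for sea-going ancestors that settled lakes again and again. None of the gene IDs could be paired with a gene name, so what the 17 genes do is not given here, and neither known ion transporters nor the markers of gill cell types could be looked up. In whole gill, more cells of a type and more RNA per cell cannot be told apart.

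Moved marine fish were the most shallowly sequenced group, with 6932688 to 16108405 counts per fish, against 17993109 to 19450343 in kept marine fish and 23609866 to 28960967 in freshwater fish. Moved marine fish 2, the shallowest library, stood apart. It was at least 4 times above the median of the other 4 moved fish for 371 of the 12687 genes with a mean of 5 CPM or more in moved marine fish (2.92%), against 112 genes (0.883%) in fish 5 and 22 to 40 in fish 1, 3 and 4. The main values that rest on this fish are given with and without it.

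All 17 genes had at least 7 counts in any fish and at least 22 counts in any moved marine fish. Some were low in kept marine fish, with means of 0.844 CPM at rank 7 and 1.40 CPM at rank 16. These are near the 0.5 CPM added to the ratios. With 0.5 CPM added, means of the 17 genes in moved marine fish were 2.93 to 23.7 times those in kept marine fish. The median was 5.75 times (log2 2.52). Folds of moved marine fish over the kept marine mean carry this 0.5 CPM throughout. Over the 12687 genes the median log2 ratio was -0.03. Together the 17 genes took 263 ± 51.1 CPM in kept marine fish (SD, n = 4) and 2004 ± 2110 CPM in moved marine fish (n = 5), or 1084 ± 537 CPM without moved marine fish 2 (n = 4). In moved freshwater fish they took 542 ± 50.3 CPM (n = 4), and in kept freshwater fish 470.0 ± 66.8 CPM (n = 4). The SD in moved marine fish exceeded the mean, so the group mean describes few of these fish.

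**Figure D1:**
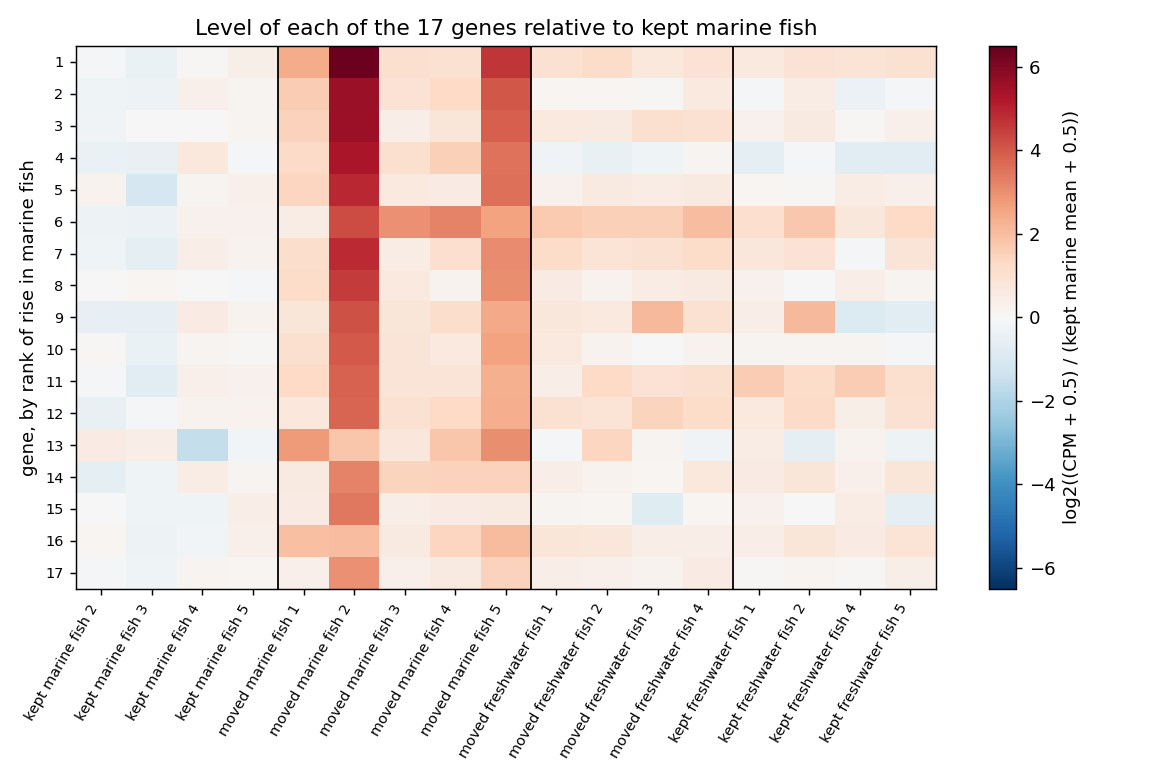
Each row is 1 of the 17 genes, by rank, and each column 1 fish, with black lines between the groups. The colour gives log2 of CPM (0.5 added) over the mean of kept marine fish, and the darkest red stands in moved marine fish 2, followed by moved marine fish 5.

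The size of the difference was uneven across the moved fish. In moved marine fish 2 the median of the 17 genes lay 17.6 times above the kept marine mean, and in moved marine fish 5 it lay 6.23 times above it. In fish 1, 4 and 3 the medians were 2.28, 2.14 and 1.75 times the kept mean. Fish 2 was the highest moved fish for 15 of the 17 genes, where it was the highest for 21.3% of the 12687 genes, and fish 5 was the highest for the other 2. For 13 genes fish 2 was followed directly by fish 5, and for 9 of these fish 1 came next. With 0.5 CPM added to both values, 16 of the 17 genes were at 4 times the kept mean or more in fish 2. This held for 14 genes in fish 5, for 2 in fish 1 and for 1 each in fish 3 and fish 4. The order of the 5 fish by these medians (2, 5, 1, 4, 3) is also their order from the lowest to the highest library total, at 6932688, 9090093, 9740777, 11383221 and 16108405 counts. The part of depth in this order was not tested.

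**Figure D2:**
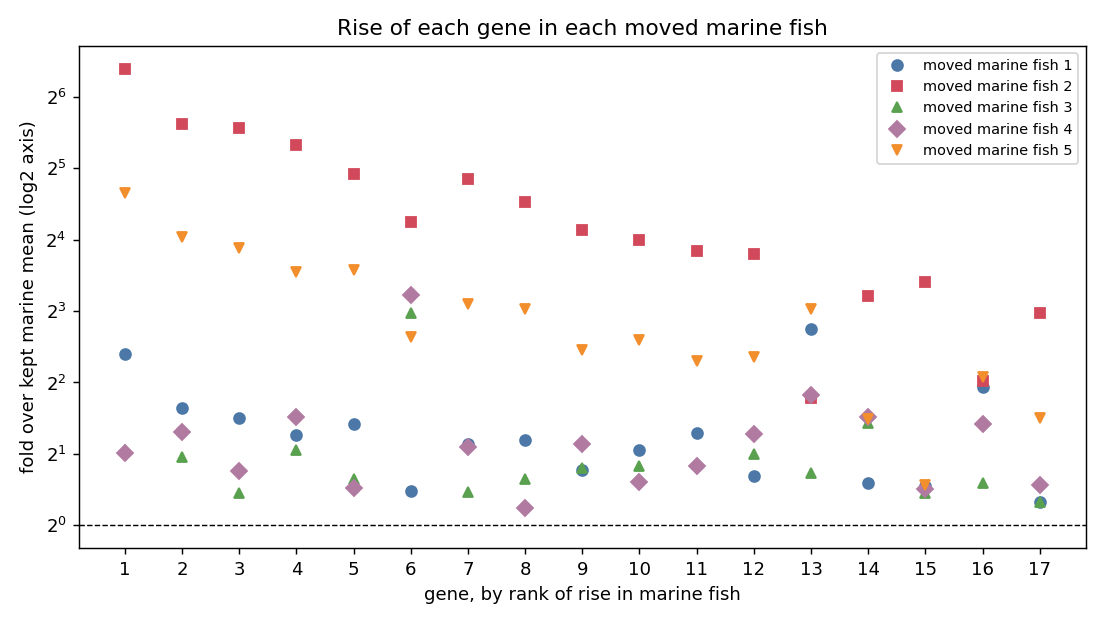
The vertical axis (log2 scale) gives the level of each gene in each moved marine fish as a fold over the kept marine mean, with 0.5 CPM added to both, and the horizontal axis gives the rank of the gene. Moved marine fish 2 (squares) lies highest for all ranks but 13 and 16, and the gene at rank 6 has fish 1 near the kept level.

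Without moved marine fish 2 the genes were at 1.43 to 8.61 times the kept mean, with a median of 3.30 times, and 11 of the 17 still had a log2 ratio of 1.5 or more. Without fish 2 and 5 the median was 2.01 times (log2 1.01), the range 1.33 to 6.19 times, and 3 genes had a log2 ratio of 1.5 or more. The separation from kept marine fish was narrow: the lowest moved fish exceeded the highest kept fish by a factor of 1.01 to 1.63, with a median of 1.21, and by less than 1.2 for 8 genes. Fish 3 was the lowest moved fish for 8 genes, fish 4 for 5 and fish 1 for 4.

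ENSGACG00000018461, at rank 1, had the largest ratio. Kept marine fish 2 to 5 were at 6.0, 4.74, 6.92 and 8.53 CPM. Moved marine fish 1 to 5 were at 36.8, 590.2, 14.2, 13.7 and 176 CPM. Fish 3 and 4 were thus less than 2 times above the highest kept fish, whereas fish 2 was far above all others. Moved freshwater fish 1 to 4 were at 13.7, 15.5, 10.7 and 13.2 CPM. Kept freshwater fish 1, 2, 4 and 5 were at 10.3, 12.8, 12.8 and 13.6 CPM. All 8 freshwater fish therefore lay above all kept marine fish, in both waters, and beside the lower moved marine fish. The log2 ratio in marine fish was 4.56, and 3.11 without moved marine fish 2.

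ENSGACG00000014005, at rank 2, also had moved marine fish 2, 5 and 1 highest, in that order, but another level in freshwater fish. Kept marine fish 2 to 5 were at 3.00, 2.92, 4.76 and 4.32 CPM, and moved marine fish 1 to 5 at 12.7, 208, 7.76, 10.01 and 68.9 CPM. Freshwater fish were at 4.08, 4.21, 4.04 and 6.06 CPM when moved and at 3.36, 5.52, 2.81 and 3.39 CPM when kept. No freshwater fish reached the lowest moved marine fish, and most lay within the range of kept marine fish. The log2 ratio in marine fish was 3.87, and 2.58 without moved marine fish 2.

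ENSGACG00000019785, at rank 4, was at 5.06, 4.79, 11.5 and 6.17 CPM in kept marine fish 2 to 5. In moved marine fish 1 to 5 it was at 17.2, 294, 14.8, 20.7 and 85.5 CPM. Moved freshwater fish were at 5.72, 4.77, 5.69 and 7.92 CPM, and kept freshwater fish at 4.45, 6.32, 4.07 and 4.07 CPM. This was the gene whose freshwater fish were lowest against kept marine fish, with a freshwater mean 0.781 times theirs. In the other 16 genes the freshwater mean exceeded the kept marine mean.

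ENSGACG00000015671, at rank 6, had another order among the moved fish. Kept marine fish 2 to 5 were at 56.5, 54.7, 86.4 and 85.5 CPM, and moved marine fish 1 to 5 at 99.2, 1353, 559, 664 and 444 CPM. Fish 1 was here close to the kept fish, while fish 3 and 4 were among the high ones. Its rise depended less on fish 2 and 5 than that of any other of the 17 genes at ranks 1 to 12: it was 8.76 times with all fish, 6.20 times without fish 2 and 6.19 times without both. Moved freshwater fish 1 to 4 were at 233, 209, 211 and 285 CPM, and kept freshwater fish 1, 2, 4 and 5 at 150, 242, 120 and 177 CPM. Every freshwater fish stood above every kept marine fish and above moved marine fish 1, and below moved marine fish 2 to 5.

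**Figure D3:**
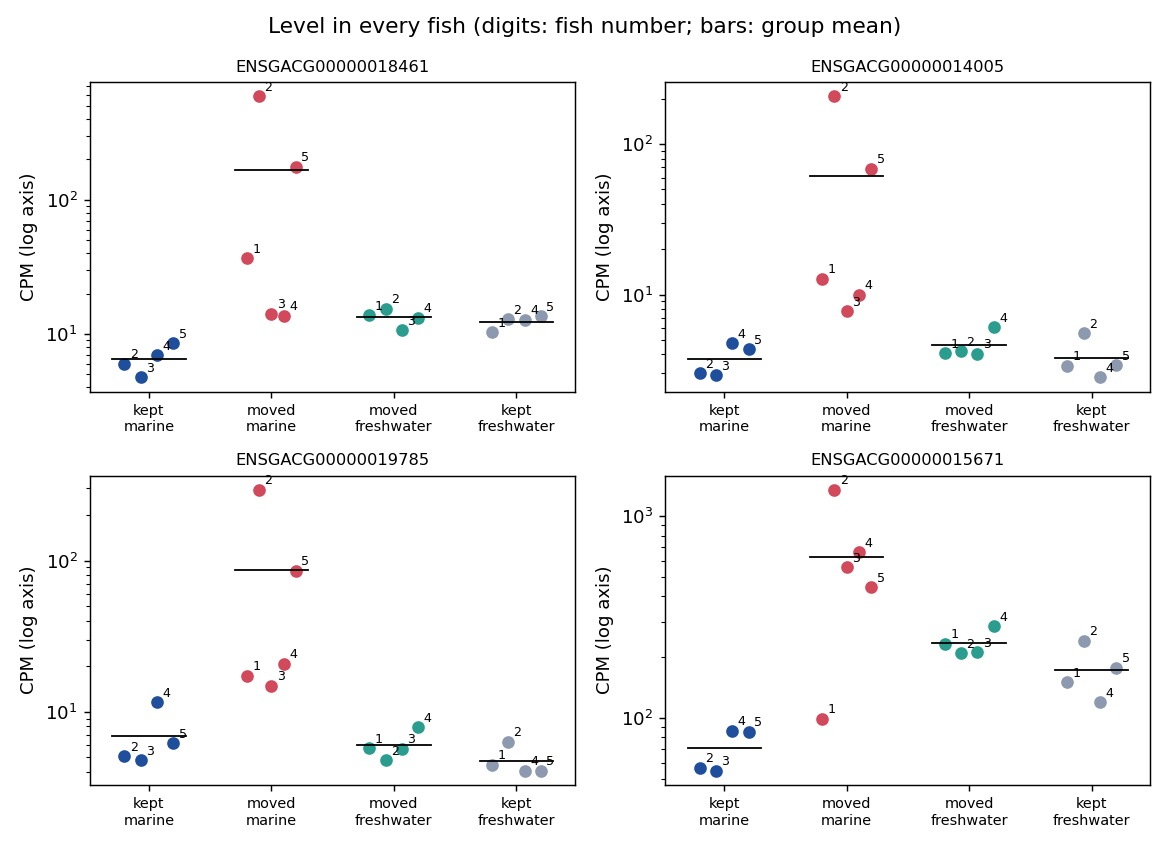
Each panel gives 1 named gene, with CPM on a log axis, 1 point per fish labelled with its fish number, and a bar at the group mean. For ENSGACG00000018461, ENSGACG00000014005 and ENSGACG00000019785 moved marine fish 2 and 5 stand above the other moved fish, and for ENSGACG00000015671 moved marine fish 1 stands below the freshwater fish.

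The other 13 genes are given by rank, and those described singly were picked after their values were seen. The genes at ranks 13 and 16 were the ones led by moved marine fish 5. At rank 13, moved marine fish 1 to 5 were at 35.0, 17.7, 8.32, 18.2 and 42.7 CPM, against 1.30 to 7.06 CPM in kept marine fish. Its rise was 4.70 times with all fish and 5.01 times without fish 2. At rank 16, the moved fish were at 6.78, 7.21, 2.36, 4.57 and 7.48 CPM, against 0.991 to 1.85 CPM in kept marine fish. Its coefficient of variation among moved marine fish was 38.4%, the lowest of the 17 genes, where the highest was 148% and the median 123%.

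At rank 15 the rise rested on a single fish. Moved marine fish 2 was at 373 CPM, and fish 1, 3, 4 and 5 were at 51.3, 47.6, 49.7 and 51.5 CPM, just above the highest kept marine fish at 47.2 CPM. Without fish 2 the mean was 1.43 times the kept mean. The gene at rank 17 was close to this, with 63.2 CPM in fish 2, 22.7 CPM in fish 5 and 9.75 to 11.5 CPM in the other moved fish, against 6.28 to 8.76 CPM in kept marine fish. The genes at ranks 3, 5, 7, 8, 10 and 11 also had fish 2, 5 and 1 highest, in that order, and were 5.05 to 13.5 times the kept mean. The genes at ranks 9 and 12 put fish 4 next after fish 2 and 5, at 5.75 and 5.01 times the kept mean, and the gene at rank 14 put fish 4 directly after fish 2, at 3.82 times.

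Freshwater fish in fresh and in marine water differed by log2 ratios between -0.49 and 0.45 for the 17 genes, which the choice required. Of these ratios 13 were below 0 and 4 above, with a median of -0.23, where the median over the 12687 genes was -0.10. The bound fell within a run of similar values: 0.49 was the largest absolute ratio taken, and 0.51 the smallest left out among genes that met the other conditions. Those other conditions were met by 34 genes, of which 12 were higher and 5 lower in fresh water in freshwater fish by 0.5 or more. The lowest rise taken was a log2 ratio of 1.55, and the highest left out 1.49.

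The condition that kept the most genes out at this size of rise was the overlap of kept and moved marine fish. A further 175 genes met all other conditions but overlapped. In these the highest moved fish was fish 2 for 148 genes, and the lowest was fish 3 for 86 and fish 1 for 64. The highest kept fish was fish 4 for 108. The 17 genes are thus the separated edge of 192 genes, and fish 2 was the highest moved fish for most of these. How far each fish rose in the 175 genes was not examined. With the rule applied without moved marine fish 2, 10 genes were found, all of them among the 17. It found 47 without kept marine fish 4 and 61 without kept marine fish 5. Without moved marine fish 1, 3 and 4 it found 50, 60 and 28. Each of these longer lists held all 17 genes. Leaving out a marine fish cannot undo the separation and does not change the ratio in freshwater fish. That the 17 genes stayed was thus largely fixed by the choice.

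**Figure D4:**
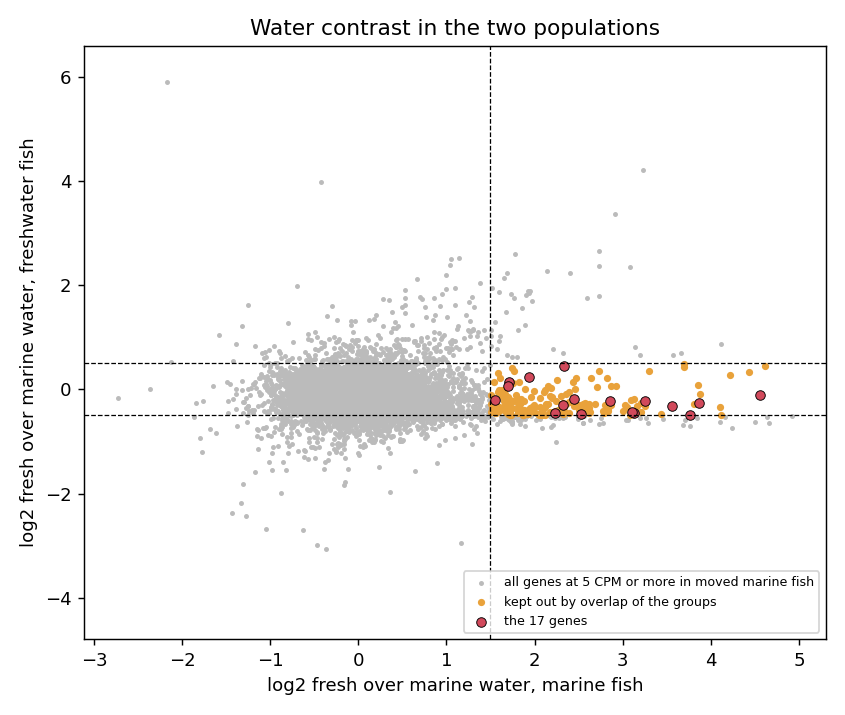
The horizontal axis gives the log2 ratio of fresh to marine water in marine fish and the vertical axis the same ratio in freshwater fish, for 12687 genes (grey). Dashed lines mark the bounds of the choice, red points are the 17 genes, and orange points are the 175 genes that met the bounds but overlapped between kept and moved marine fish.

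The contrast of moved with kept marine fish was used in the choice, so its calls are counted and nothing is read from them. By edgeR's quasi-likelihood test over 18238 genes, all 17 included, with Benjamini-Hochberg adjustment at 0.05, 280 genes (1.54%) were higher in moved marine fish. Of the 17 genes 14 were among them. Separation without overlap, which the choice required, held for 1.52% of all tested genes. Without kept marine fish 2, 3 or 4, and when only marine fish were fitted, no gene was called higher, and so none of the 17. All 17 had an unadjusted p below 0.05 in these fits, which their choice on this contrast made likely. Without moved marine fish 2 the test called 8 of the 17 and 65 genes in all. All-gene counts were 129 to 186 with freshwater fish 1 or 2 of either group or moved freshwater fish 4 left out, and 445 to 579 with kept marine fish 5 or moved marine fish 1 or 3 left out.

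Freshwater and marine fish were next compared in the same water, contrasts that the choice did not use. They share libraries with it, however. Kept marine fish had been picked low and moved marine fish high, which moves both comparisons in a known direction. In marine water, moved freshwater fish lay above kept marine fish for 15 of the 17 genes, with a median log2 difference of 0.41, where the median over all tested genes was 0.02. The differences ranged from -0.33 to 1.58. A single gene was called higher (5.88% of the 17, against 10.1% of all tested genes) and none lower (against 10.8%). The test took the spread of each gene from all 4 groups, so moved marine fish entered it though they were not compared here. In them the median coefficient of variation was 123% for the 17 genes, against 21.0% over the 12687 genes. These call shares thus rest in part on a group outside the comparison. The gene called was ENSGACG00000015671, with 234 ± 35.1 CPM in moved freshwater fish (SD, n = 4) and 70.8 ± 17.6 CPM in kept marine fish (n = 4), for which edgeR gave a log2 value of 1.58 ± 0.47 (SE) and an adjusted p of 0.025. Without moved freshwater fish 4 or kept marine fish 2, 3 or 4 its adjusted p was above 0.05, with a range of 8.1e-04 to 0.072 over 26 alternatives. Of all tested genes, 20.5% had every moved freshwater fish above every kept marine fish, and 8.44% had every one below. Of the 17 genes these were 10 and 0. For 9 of these 10 genes the adjusted p was above 0.05 in the fit with all groups. Fitted on these groups alone the test called 7 of the 17 genes, all higher in freshwater fish. Over all genes this fit called 4480 of 17659 in either direction, 49.0% of them higher in freshwater fish. With all groups it was 3816 of 18238, 48.2% of them higher. The share called higher among the 17 was thus below that of all genes with all groups, and above it in this fit. The SE of ENSGACG00000015671 was 0.17 in this fit, against 0.47 with all groups.

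In fresh water the choice had fixed much of the outcome, since it asked for high values in moved marine fish and for kept freshwater fish close to moved ones. The values are therefore given as a description. Kept freshwater fish were lower than moved marine fish for all 17 genes, with a median log2 difference of -2.37 and a range of -4.23 to -0.97, where the median over all tested genes was 0.0044. Without moved marine fish 2 the median was -1.44 and the range -2.88 to -0.07. Without fish 2 and 5 the median was -0.73 and the range -2.17 to 0.33, so that not all 17 genes were lower. ENSGACG00000019785 had the largest difference with all fish, at 4.73 ± 1.08 CPM in kept freshwater fish (SD, n = 4) and 86.5 ± 120 CPM in moved marine fish (n = 5), which edgeR put at a log2 value of -4.23 ± 0.79 (SE). It was -2.88 without moved marine fish 2 and -1.97 without fish 2 and 5. ENSGACG00000014005 followed, with 3.77 ± 1.2 and 61.4 ± 85.7 CPM, at a log2 value of -4.06 ± 0.83 (SE). This was -2.72 without moved marine fish 2 and -1.51 without fish 2 and 5. By edgeR 14 of the 17 genes were called lower, where 6.57% of all tested genes were, and none higher, where 7.80% were. Nothing is read from these counts. The genes not called were those at ranks 9, 11 and 15. At ranks 1, 2, 4, 5, 10 and 13 every kept freshwater fish lay below every moved marine fish, which makes 6 genes. This was so for 3.51% of all tested genes, and for 9.32% every freshwater fish was higher, a pattern that none of the 17 had. Over all tested genes 2621 were called in either direction, 14 of the 17 among them. Leaving out moved marine fish 2 gave 2015 (11 of the 17), and leaving out fish 5 as well gave 1555 (5 of the 17). With kept freshwater fish 1 left out 1593 genes were called (9 of the 17), and with fish 4 left out 1335 (8 of the 17). Fitted on these groups alone it was 629 (2 of the 17), with 15 of the 17 genes at an unadjusted p below 0.05.

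**Figure D5:**
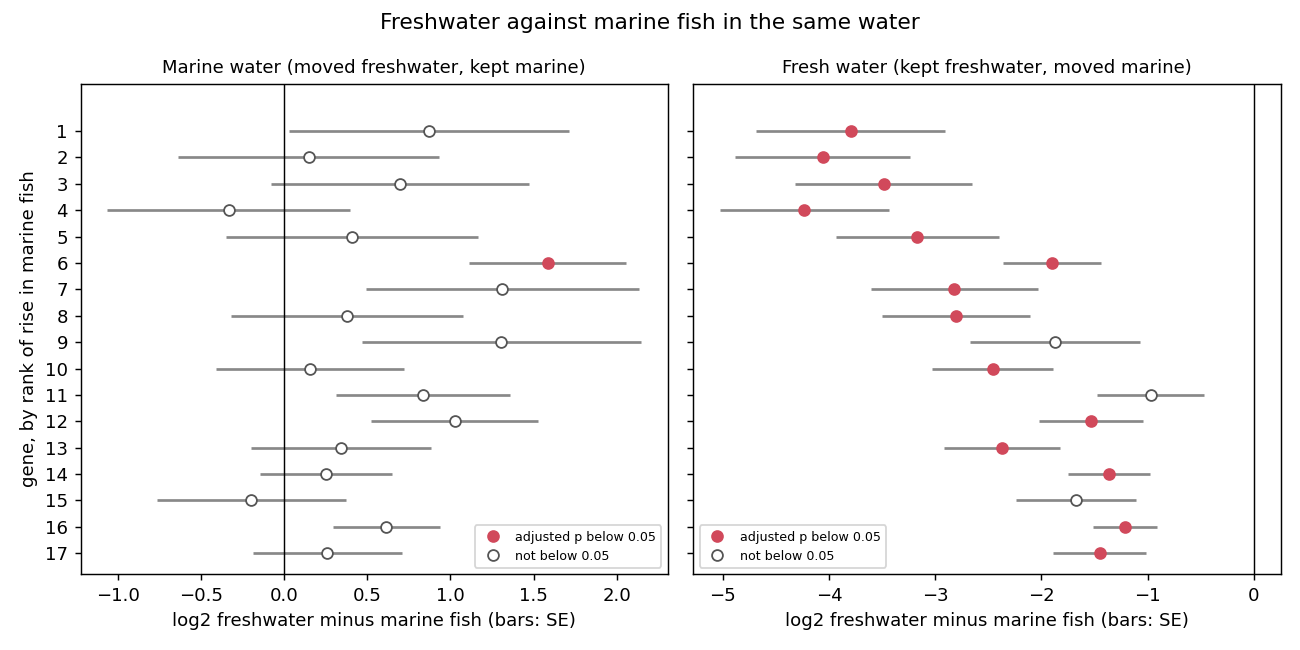
Points give the log2 difference of freshwater minus marine fish for each of the 17 genes in marine water (left) and in fresh water (right), from edgeR with all fish, with bars of 1 SE, and each panel has its own horizontal scale. Filled points have an adjusted p below 0.05, 1 on the left and 14 on the right, where the choice of genes fixed much of the outcome.

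For 16 of the 17 genes the mean over all 8 freshwater fish lay between the means of kept and moved marine fish. Without the added 0.5 CPM it was 0.781 to 2.87 times the kept marine mean over the 17 genes, with a median of 1.43 times. Likewise without it, the moved marine mean was 2.20 to 16.1 times that of freshwater fish, with a median of 4.18 times. Without moved marine fish 2 these were 1.19 to 6.43 times, with a median of 2.20 times. For 5 genes, at ranks 1, 6, 11, 12 and 16, every freshwater fish lay above every kept marine fish. For 15 genes at least 1 freshwater fish reached the lowest moved marine fish, and for the gene at rank 6 all 8 did. The exceptions were ENSGACG00000014005 and ENSGACG00000019785.

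Variation within freshwater fish was not used in the choice. The median coefficient of variation of the 17 genes was 18.3% in moved and 22.2% in kept freshwater fish, where that of the 12687 genes was 13.5% and 16.2%. In moved marine fish it was 123%, against 21.0% over the 12687 genes (69.6% and 18.7% without moved marine fish 2), and in kept marine fish 25.7% against 17.6%. The 12687 genes were taken by their level in moved marine fish. Several of the 17 lay below 5 CPM in the other groups, such as rank 7 at 1.58 CPM in kept freshwater fish. Low counts raise this coefficient, and the 17 were not set against genes of like level, so nothing is read from the differences. The highest values were 64.5% in moved freshwater fish, at rank 13, and 118% in kept freshwater fish, at rank 9. The gene at rank 9 had 10.7 CPM in moved fish 3 and 11.0 CPM in kept fish 2, against 0.912 to 4.82 CPM in the other 6. Its coefficient of variation in moved freshwater fish was 58.2%.

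Across the 8 freshwater fish, after the mean of each group was taken off, the 136 pairs of the 17 genes had a median Pearson r of 0.01 on log2 CPM, where all pairs of the 12687 genes had 0.01. An r above 0.5 was found for 23.5% of their pairs and 16.1% of all pairs. The highest were 0.93 between ranks 2 and 6, 0.91 between ranks 2 and 4, 0.91 between ranks 3 and 12, and 0.90 between ranks 14 and 17. The genes at ranks 2, 3, 4, 6, 7, 9 and 12 were picked as the largest set with an r above 0.5 in every pair. Their 21 pairs, at 0.51 to 0.93, thus lay above 0.5 by choice. How large such a set would be among other genes was not examined. These values describe 8 libraries that each pair of genes shares, and no test was made.

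At ranks 1, 9, 11, 12 and 16, or 5 of the 17 genes (29.4%), the counts of all fish were multiples of 2 or of 3. Among the 17449 genes with over 200 counts this was 27.9%. It leaves plain CPM ratios within a gene as they are, but the counting error of such genes may be larger than their counts imply. The bound of 5 CPM and the ratios with 0.5 CPM added would change if such counts were divided. The gene at rank 16, for example, averaged 5.68 CPM in moved marine fish. The choice was not repeated on divided counts.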

How the data were processed

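RNA of whole gills was sequenced, 1 library per fish. The authors deposited whole-number read counts per gene, not normalized, in 17 columns for 22456 genes (columns of no sample: 0). CASAVA 1.8.2 and TopHat2 2.1.0 are named in the submitters' processing notes. Not given in the sources used here are the read counter, its strand setting, the build and the gene models, so coordinates are left out. Genes that share reads with a copy or a neighbour cannot be told from the counts. Of the IDs, 0 matched the reference gene table (52177 genes, 0 with an Ensembl ID), so lists of gill genes and of cell type markers could not be applied.

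The members, gene lists and tests were chosen with earlier results of these data known. Groups came from the labels. CPM used column totals. Genes were filtered with filterByExpr, scaled by TMM and fitted over all 4 groups with edgeR 4.0.16 (glmQLFit, glmQLFTest; tested on simulated data), Benjamini-Hochberg adjustment running over 18238 genes. SEs are the log2 fold change over the square root of F. In the 28 pairs of replicate libraries, chi-square per degree of freedom was 36.1 to 151, so none was taken for a duplicate.

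Genes named by ID were the 2 largest ratios and, per comparison of populations, up to 2 called, non-overlapping differences in each direction. Alternatives used DESeq2 1.42.0, limma 3.58.1, other scalings and filters, a fish-number block and each fish left out. R 4.3.3, Python 3.11.15, numpy 2.4.6, pandas 2.3.3 and matplotlib 3.10.9 were used.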

Additional observations from a re-analysis of the deposited data

Results flagged for a closer look

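For each of the 17 genes and for their summed CPM, the highest and lowest fish of each group were set against the rest of the group by Dixon's ratio, in 72 groups. Of these, 17 were flagged. Chance flags about 1 in 20 groups, but that rate cannot be set against this count, since the groups share the same 17 fish and the genes were chosen on their marine values. In 10 of the flagged groups moved marine fish 2 stood above the other moved marine fish. Its values were 590.2 CPM for ENSGACG00000018461 (next fish 176 CPM), 294 CPM for ENSGACG00000019785 (next 85.5 CPM), and 38.1, 45.9, 389, 441, 242, 373 and 63.2 CPM for the genes at ranks 7, 9, 11, 12, 14, 15 and 17. The summed CPM of the 17 genes was 5685 in this fish, against 1820 in the next. This fish also had the lowest library total, and the part of depth or of RNA quality in its values was not tested.

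In freshwater fish 6 values were flagged. Moved freshwater fish 4 was high for ENSGACG00000014005, at 6.06 CPM against 4.21 CPM in the next fish, and for the summed CPM, at 618 against 520 CPM. Moved freshwater fish 3 was high at rank 9, at 10.7 CPM, and low at rank 15, at 19.7 CPM. Moved freshwater fish 2 was high at rank 13, at 13.4 CPM. Kept freshwater fish 5 was low at rank 10, at 5.72 CPM. In kept marine fish the single flag was fish 3, low at rank 5 with 1.21 CPM.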

How the results depend on the processing

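Tracked under the alternatives were the log2 ratios in marine fish at ranks 1 and 2, and the medians over the 17 genes. The differences of ENSGACG00000015671 in marine water and of ENSGACG00000019785 and ENSGACG00000014005 in fresh water were also tracked. All of these kept their sign in every alternative run. Other ratios and differences of the genes named by ID were not tracked. The choice of genes had largely fixed these signs between the marine groups and in fresh water, so nothing is read from this. The median over all tested genes, near 0, did not keep its sign: it was -0.03 to 0.04 in marine water and -0.06 to 0.02 in fresh water. The rule found 17 genes, 150 when overlap was allowed and the list capped at 150 (15 of the 17 among them), and 10 to 61 with each fish left out. Chosen after seeing the data, leaving out moved marine fish 2 and 5 together gave 11 genes (3 of the 17) and a median log2 ratio of 1.01 for the 17, and thinning, which leaves expected CPM as they are, gave 22 genes (13 of the 17). Genes higher in moved marine fish numbered 280, of which 14 were among the 17. They numbered 960 with DESeq2 (16 of the 17), and 94 with limma voom (5 of the 17). They numbered 0 when only these groups were fitted (0 of the 17; 3004 genes in either direction at an unadjusted p below 0.05). With each fish left out they numbered 0 to 579 (0 to 15 of the 17); the 0 came without kept marine fish 2, 3 or 4, where 3175, 3083 and 3657 genes had an unadjusted p below 0.05. In marine water 3816 genes differed between populations (1 of the 17), against 6131 with limma voom (2 of the 17). DESeq2 called 4790 there (1 of the 17). Fitted alone, these groups gave 4480 (7 of the 17), and leaving out each fish gave 2555 to 4479 (0 to 2 of the 17). In fresh water 2621 genes differed (14 of the 17). Fitted alone, these groups gave 629 (2 of the 17), without moved marine fish 2 and 5 it was 1555 (5 of the 17), and with each fish left out 1335 to 2949 (8 to 15 of the 17), with 1593, 1373 and 1335 without kept freshwater fish 1, 2 and 4. Limma voom called 1835 genes in fresh water (6 of the 17), and DESeq2 called 3705 (14 of the 17). The adjusted p of ENSGACG00000014005 there ranged from 5.6e-06 to 0.059, the latter with these groups fitted alone. The cause of these differences was not tested.

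With the fish number as a replicate block, 0 genes were higher in moved marine fish (0 of the 17). An unadjusted p below 0.05 was found for 3621 genes in either direction. In fresh water 1802 genes were called with the block (9 of the 17). The labels do not state whether equal numbers pair the fish, and these values do not decide it. Between the marine groups, deviations of same-numbered fish from their group means correlated at -0.19 for fish 2. For fish 3, 4 and 5 this was 0.19, 0.19 and 0.23. Between the populations it was 0.06 to 0.12 in marine water and up to 0.10 in fresh water. A fish correlated best with its own number in 3 of 4, 2 of 3 and 1 of 4 pairs.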
